A study of Mus musculus with 4 samples.

Results

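The genes described here are 38 genes of the cell division cycle, chosen by name, out of 30907 features counted in mouse tracheal cells. All 38 were found in each of the 4 single-cell libraries. The cells described with them are those with at least 3 UMIs (unique molecular identifiers, each marking 1 captured RNA molecule) summed over Mki67, Top2a, Cdk1 and Ube2c, called here cells past the gate. They numbered 126 of 6533 kept cells. The level of these 4 genes therefore defines the cells past the gate and is no finding about them, whereas the other 34 genes were not used to pick cells.

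The study grafted basal cells into the injured mouse trachea and profiled graft and host cells after long engraftment. The 4 libraries were the donor-derived cells (here the iBC graft) and the endogenous cells (the iBC host) of a mouse given iBCs, basal cells made in culture from pluripotent stem cells, taken at day 192, and the donor-derived cells (the primary BC graft) and the endogenous cells (the primary BC host) of a mouse given primary basal cells (primary BCs), taken at day 69. Recipients were adult wild type mice whose tracheal epithelium was injured with 2% polidocanol and which received 6000000 cells 5 hours later. The label of the iBC recipient gives the strain 129 X1/S1 and that of the primary BC recipient C57BL/6. Live GFP+ (graft) and GFP- (host) cells were sorted from 1 digested trachea each, so every group is 1 library of 1 animal. No test between groups was possible and no p-values are given. Between the 2 recipients, the kind of graft, the day, the strain and the animal cannot be told apart. All 95% intervals are exact (Poisson for UMIs, Clopper-Pearson for shares of cells) and cover counting error only. Those for UMIs take each UMI as independent. They leave out the spread between cells, and are too narrow where few cells hold the UMIs.

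A cell that divides passes through G1, in which D-type and then E-type cyclins drive its entry into S phase, the phase of DNA synthesis. The MCM helicase is loaded on replication origins by Cdc6 and Cdt1, with geminin (Gmnn) as the inhibitor of Cdt1, and enzymes such as ribonucleotide reductase and thymidylate synthase supply the nucleotides. In G2 and M, Cdk1 with cyclins A and B, the Aurora and Polo kinases, and the kinetochore and spindle proteins bring about chromosome segregation, and the anaphase-promoting complex with Cdc20 and Ube2c ends mitosis. In the adult trachea few cells divide, and basal cells are the main dividing epithelial cells, while ciliated cells have left the cycle. Precursors of ciliated cells, called deuterosomal cells, multiply centrioles without dividing and are known to use some mitotic regulators for it.

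Transcription of these genes is known to be timed by promoter elements, E2F sites for G1/S genes and the cell cycle homology region (CHR) with CCAAT boxes for G2/M genes. Promoters from 250 bases before to 50 bases after the RefSeq start (GRCm38.p6) were found for 30 of the 38 genes. They were searched on both strands for TTTGAA (CHR), for CCAAT, and for an E2F core, written as TTCCCGC or as TTGGCGC or as TTCGCGC. The CHR letters stood in 11 of 15 promoters of the mitotic genes (73.3%), in 1 of 14 promoters of the licensing and DNA synthesis genes (7.14%), and in 18.1% of 27025 promoters of the same length. An E2F core stood in 3 of 15 mitotic promoters, in 9 of 14 licensing and DNA synthesis promoters (64.3%) and in 8.21% of all promoters. CCAAT stood in 93.3% of the mitotic, 64.3% of the licensing and DNA synthesis and 37.9% of all promoters. Not every gene followed its group: the promoter of Ccnb1 held an E2F core and no TTTGAA, and that of Pcna held neither. The genes shown are Cdk1, whose promoter held TTTGAA and E2F cores, Ccnb2 and Cdc20, which held TTTGAA and no E2F core, and Mcm6 and Mcm5, which held E2F cores and no TTTGAA. The windows are chr10:69352863-69353162, chr9:70421505-70421804, chr4:118437294-118437593 and chr1:128359656-128359955, each on the minus strand, and chr8:75109259-75109558 on the plus strand. Capitals mark the searched letters or their reverse complements, and they join where an E2F core overlaps another on the opposite strand or a neighbouring motif. A match describes letters and does not show a bound site.
Cdk1: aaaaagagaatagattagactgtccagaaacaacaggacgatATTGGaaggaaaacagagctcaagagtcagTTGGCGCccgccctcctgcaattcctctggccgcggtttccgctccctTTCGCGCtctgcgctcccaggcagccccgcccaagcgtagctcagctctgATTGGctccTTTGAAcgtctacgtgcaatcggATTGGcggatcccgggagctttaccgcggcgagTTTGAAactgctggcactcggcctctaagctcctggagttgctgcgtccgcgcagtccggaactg
Ccnb2: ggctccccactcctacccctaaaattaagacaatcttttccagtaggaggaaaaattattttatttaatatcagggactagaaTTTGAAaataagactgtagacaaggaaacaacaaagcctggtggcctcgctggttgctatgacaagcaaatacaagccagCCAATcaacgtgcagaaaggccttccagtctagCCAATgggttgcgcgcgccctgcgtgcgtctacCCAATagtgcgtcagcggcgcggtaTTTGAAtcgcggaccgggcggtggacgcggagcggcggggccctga
Cdc20: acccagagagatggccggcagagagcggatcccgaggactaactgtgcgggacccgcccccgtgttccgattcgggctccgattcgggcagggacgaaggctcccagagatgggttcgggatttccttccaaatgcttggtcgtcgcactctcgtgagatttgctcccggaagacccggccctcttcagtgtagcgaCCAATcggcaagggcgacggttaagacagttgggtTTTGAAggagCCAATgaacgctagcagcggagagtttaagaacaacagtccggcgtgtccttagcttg
Mcm6: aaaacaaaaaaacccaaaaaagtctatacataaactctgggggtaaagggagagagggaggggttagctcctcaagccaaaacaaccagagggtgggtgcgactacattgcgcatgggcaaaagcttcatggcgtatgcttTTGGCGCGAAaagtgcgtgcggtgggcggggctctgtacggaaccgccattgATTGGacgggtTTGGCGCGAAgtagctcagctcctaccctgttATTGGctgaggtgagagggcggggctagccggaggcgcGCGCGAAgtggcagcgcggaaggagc
Mcm5: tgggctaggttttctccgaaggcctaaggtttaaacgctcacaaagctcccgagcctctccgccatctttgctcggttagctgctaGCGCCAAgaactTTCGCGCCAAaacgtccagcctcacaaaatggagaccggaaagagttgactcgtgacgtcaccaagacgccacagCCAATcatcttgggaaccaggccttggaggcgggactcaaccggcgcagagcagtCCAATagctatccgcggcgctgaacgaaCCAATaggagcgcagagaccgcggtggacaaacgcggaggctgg

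The kept cells numbered 1579 in the iBC graft, 1795 in the iBC host, 1807 in the primary BC graft and 1352 in the primary BC host, with 20628131 to 25863498 UMIs a library. Median UMIs per cell were 12002 in the iBC graft and 9318 in the iBC host, and 11909 in the primary BC graft and 14466 in the primary BC host, the deepest of the 4. EGFP, the graft reporter, stood at 65.5 CPM in the iBC graft and 0.0969 CPM in the iBC host, and 609.8 CPM in the primary BC graft and 8.06 CPM in the primary BC host, where CPM is UMIs per 1000000. Cells were put in classes by marker genes, and a class is a range of a score: 487 of 5716 classed cells lay near the cut and 817 were left unassigned. Where a class is said below to be led by its own markers, that lead is fixed by the rule. Markers of leukocytes, summed over the list of 9, stood at 343 CPM in the iBC graft and 3966 CPM in the iBC host, and 3653 CPM in the primary BC graft and 5899 CPM in the primary BC host, and Ptprc was at 0 in the iBC graft. Scrublet marked 91 cells as doublets, which were left out, and 2 cell barcodes occurred in more than 1 library.

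Cells past the gate were most frequent in the primary BC host. They were 17 of 1579 iBC graft cells (1.08%, 95% interval 0.628 to 1.72%), 16 of 1795 iBC host cells (0.891%, 95% interval 0.5103 to 1.44%), 31 of 1807 primary BC graft cells (1.72%, 95% interval 1.17 to 2.43%) and 62 of 1352 primary BC host cells (4.59%, 95% interval 3.53 to 5.84%). The intervals of the iBC graft and host overlapped, and those of the primary BC graft and host did not. Depth can set such shares, so each cell was also thinned to 5000 UMIs, leaving out 45 shallower cells of the iBC graft, 102 of the iBC host, 13 of the primary BC graft and 3 of the primary BC host. The shares were then 0.848% in the iBC graft and 0.709% in the iBC host, and 0.948% in the primary BC graft and 2.298% in the primary BC host. Exactly 2 gate UMIs, just outside, were counted in 3 cells of the iBC graft, 3 of the iBC host, 11 of the primary BC graft and 13 of the primary BC host, and exactly 3, just inside, in 2 cells of the iBC graft, 2 of the iBC host, 6 of the primary BC graft and 9 of the primary BC host.

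**Figure D1:**
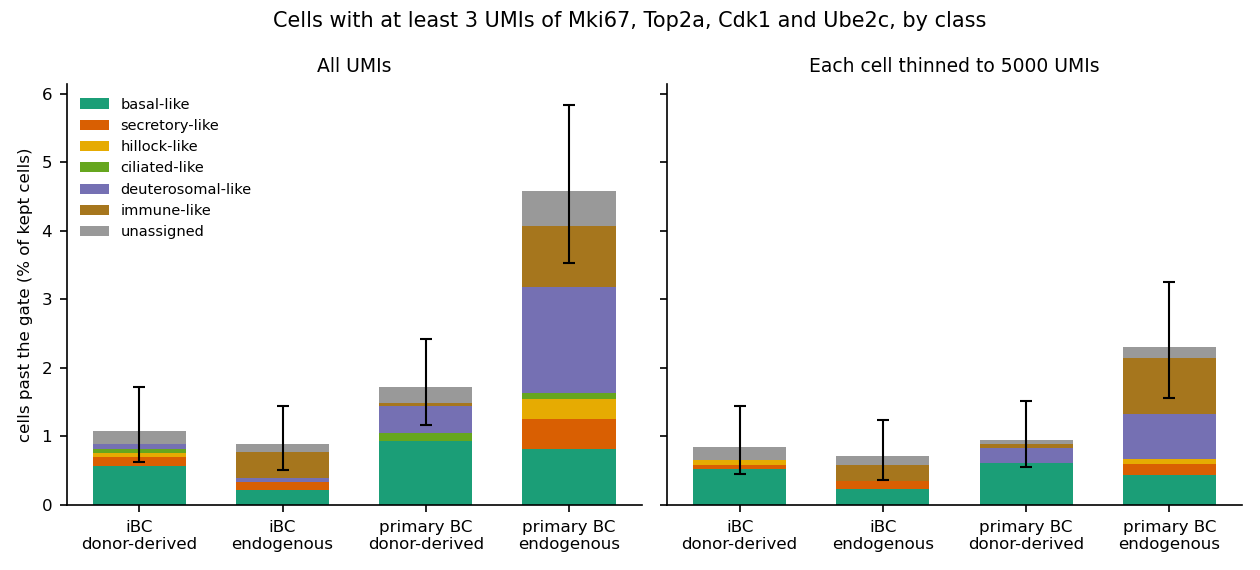
Stacked bars of the cells past the gate as percent of all kept cells of a library, coloured by class, from all UMIs (left) and with each cell thinned to 5000 UMIs (right); black lines are exact 95% Clopper-Pearson intervals of the whole bar. The primary BC host stands highest at 4.59% from all UMIs, where deuterosomal-like and immune-like cells make up much of its bar, and at 2.298% after thinning.

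Much of that difference lay outside the basal cells. Of the 62 cells past the gate in the primary BC host, 33.9% were deuterosomal-like, 19.4% immune-like and 17.7% basal-like. With immune-like, mesenchymal-like and deuterosomal-like cells left out, a choice made after seeing the data, the shares were 1.02% in the iBC graft and 0.454% in the iBC host, and 1.28% in the primary BC graft and 2.31% in the primary BC host. With thinning as well they were 0.851% in the iBC graft and 0.480% in the iBC host, and 0.673% in the primary BC graft and 0.879% in the primary BC host.

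Among basal-like cells, those led by Krt5, Krt14 and Trp63, the shares were 9 of 511 iBC graft cells (1.76%, 95% interval 0.808 to 3.32%) and 4 of 689 iBC host cells (0.581%, 95% interval 0.158 to 1.48%), and 17 of 1011 primary BC graft cells (1.68%, 95% interval 0.983 to 2.68%) and 11 of 532 primary BC host cells (2.07%, 95% interval 1.04 to 3.67%). Each interval overlapped the other 3, and those of the iBC host and the primary BC host overlapped least. The differences between them were not tested. After thinning the basal-like shares were 1.59% in the iBC graft and 0.616% in the iBC host, and 1.101% in the primary BC graft and 1.13% in the primary BC host.

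Ciliated-like cells, the class of cells that have left the cycle, were taken as the background. Past the gate were 1 of 272 iBC graft cells (0.368%, 95% interval 0.00931 to 2.03%) and 0 of 356 iBC host cells, which allows a share of up to 0.843% at 3 counts and up to 1.031% by the exact interval. They were 2 of 158 primary BC graft cells (1.27%, 95% interval 0.154 to 4.498%) and 1 of 193 primary BC host cells (0.518%, 95% interval 0.0131 to 2.85%). Ciliated-like cells were deeper than basal-like ones, with medians of 11941 UMIs against 9988 in the iBC graft, 11923 against 7710 in the iBC host, 16974 against 10487 in the primary BC graft and 18754 against 11843 in the primary BC host. The raw basal-like interval overlapped the ciliated-like one in every library. The 4 ciliated-like cells past the gate held 3 to 11 gate UMIs and no UMI of Mki67, and Top2a gave 3 to 7 UMIs in each. Of the deuterosomal markers, Deup1 had a UMI in 3 of these 4 cells, Ccno in 2 and Mcidas in 1. Whether these cells were precursors was not tested. The 41 basal-like cells past the gate held 3 to 306 gate UMIs with a median of 16, and 38 of them held Mki67. After thinning, 0 ciliated-like cells passed in any library, while 8 basal-like cells of the iBC graft and 4 of the iBC host, and 11 of the primary BC graft and 6 of the primary BC host, still passed.

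Secretory-like cells, led by Scgb3a1, Muc5b and Scgb1a1, were past the gate in 2 of 418 iBC graft cells (0.478%, 95% interval 0.058 to 1.72%) and 2 of 574 iBC host cells (0.348%, 95% interval 0.0422 to 1.25%). Among those of the primary BC recipient 0 of 365 graft cells passed, which allows up to 0.822% at 3 counts and up to 1.006% by the exact interval, against 6 of 329 primary BC host cells (1.82%, 95% interval 0.672 to 3.93%). Secretory-like cells of the primary BC host were the deepest of the 4, with a median of 22974 UMIs. After thinning 1 of 416 iBC graft and 2 of 551 iBC host cells passed, and 0 of 365 primary BC graft and 2 of 329 primary BC host cells. Hillock-like cells, a layered squamous-like type with Krt13 and Krt4, passed in 1 of 15 iBC graft and 0 of 4 iBC host cells, and in 0 of 55 primary BC graft and 4 of 22 primary BC host cells. After thinning 1 of 15 iBC graft and 1 of 22 primary BC host cells remained past the gate. Immune-like cells passed in 7 of 26 iBC host cells, 1 of 2 primary BC graft cells and 12 of 67 primary BC host cells (17.9%, 95% interval 9.61 to 29.2%), and the iBC graft held no such cell.

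Deuterosomal-like cells had the highest count past the gate for their number in both libraries of the primary BC recipient. There passed 1 of 6 iBC graft and 1 of 4 iBC host cells, and 7 of 10 primary BC graft and 21 of 26 primary BC host cells. They were deep cells, with a median of 37554 UMIs past the gate, and after thinning 0 of the iBC graft and host, 4 of 10 primary BC graft and 9 of 26 primary BC host cells still passed. Their class was led by Deup1, Ccno, Plk4 and Myb together with Cdkn1a and the cell cycle genes Cks2 and Ckap2l. Deup1 (a scaffold of the deuterosome), Ccno (required for centriole multiplication) and Mcidas (which starts the multiciliate programme) are markers that set the class. Plk4 and Myb are also among its markers, so the presence of these genes in its cells is fixed by the rule. Among the 30 past the gate, the basal marker Krt5 had a UMI in 2 cells and the leukocyte marker Ptprc in 0.

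What the cells past the gate carried differed by class. Of the gate UMIs in the 30 deuterosomal-like cells, Top2a (the topoisomerase that untangles chromosomes) made up 54.3%, Cdk1 (the mitotic kinase) 39.2%, Ube2c (a ubiquitin-conjugating enzyme of anaphase) 4.07% and Mki67 (a coat protein of mitotic chromosomes) 2.44%. Of those in the 41 basal-like cells, Top2a made up 36.3%, Mki67 35.6%, Ube2c 17.7% and Cdk1 10.4%. The 20 immune-like cells lay near the basal-like ones, with 39.3% Top2a, 34.5% Mki67, 16.3% Ube2c and 9.86% Cdk1. Mki67 had a UMI in 9 of 30 deuterosomal-like cells, against 38 of 41 basal-like cells. Since these 4 genes admitted the cells, their shares describe the gate.

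The genes that the gate did not use also differed. Tk1 (thymidine kinase) and Cdc6 (origin licensing) had no UMI in any of the 30 deuterosomal-like cells past the gate, against 31 and 13 of the 41 basal-like cells. Ccna2 (cyclin A2) was found in 1 of 30 deuterosomal-like and 25 of 41 basal-like cells. Pclaf (a PCNA partner) stood at 0.0719 UMIs per 10000 in deuterosomal-like and 3.005 in basal-like cells. Other genes were common in deuterosomal-like cells: Rrm1 (large subunit of ribonucleotide reductase) had a UMI in all 30, Cenpf (a kinetochore protein) in 24, Cdc20 and Aurka (Aurora kinase A, at the centrosome) in 22 each and Ccnb1 (cyclin B1) in 18. Deuterosomal-like cells past the gate were deeper, with a median of 37554 UMIs against 18267 in basal-like ones. Detection alone therefore does not make these genes higher in them. Cdc20 stood at 1.71 UMIs per 10000 in deuterosomal-like and 2.82 in basal-like cells past the gate. Ccnd1 (cyclin D1) was found in 9 of 30 deuterosomal-like and 40 of 41 basal-like cells.

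**Figure D2:**
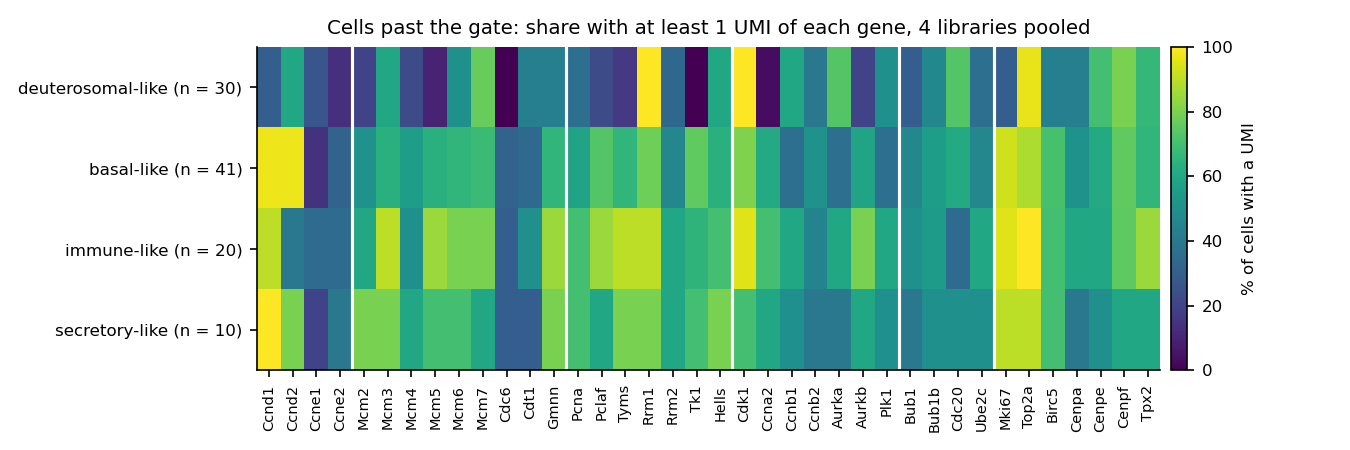
Heat map of the percent of cells past the gate with at least 1 UMI of each gene (columns, ordered by role) in 4 classes (rows), libraries pooled. The deuterosomal-like row is at 0 for Tk1 and Cdc6 and at 100% for Rrm1, while the basal-like row holds Mki67 in 38 of 41 cells. Detection rises with depth, and the deuterosomal-like cells had a median of 37554 UMIs against 18267 in the basal-like ones.

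Within the basal-like cells past the gate, the 9 of the iBC graft carried late-cycle genes and few UMIs of Pcna and Mcm2. All 9 held at least 3 UMIs over 6 other G2/M genes (Ccnb1, Ccnb2, Ccna2, Birc5, Cenpf, Tpx2), and 5 of 9 held at least 3 over 5 S phase genes (Pclaf, Tk1, Rrm2, Tyms, Hells). All 4 such cells of the iBC host met both counts. Of 17 in the primary BC graft 10 met the G2/M and 13 the S phase count, and of 11 in the primary BC host 8 met the G2/M and 7 the S phase count. Cenpf stood at 14.2 UMIs per 10000 in these iBC graft cells, against 4.704 in those of the primary BC graft. Cenpe (a kinetochore motor) stood at 6.66 in the iBC graft, against 1.28 in the primary BC graft. The basal-like cell with the most gate UMIs in the iBC graft (306 of them) held 98 of the 137 UMIs of Cenpe and 136 of the 292 of Cenpf in that group. With the top cell of each library left out, a choice made after seeing the data, Cenpe stood at 2.39 UMIs per 10000 in the iBC graft, against 1.04 in the primary BC graft, and Cenpf at 9.56 in the iBC graft, against 3.54 in the primary BC graft. Pcna (the DNA polymerase clamp) had a UMI in 2 of 9 iBC graft cells, at 0.0973 UMIs per 10000, against 14 of 17 primary BC graft cells, at 1.75. Mcm2 (a helicase subunit) was found in 1 of 9 iBC graft cells and 12 of 17 primary BC graft cells. Cells of 1 library are not replicates of its condition, and these counts describe 1 animal each.

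Library totals of the mitotic genes rested on few cells. The single cell with the most gate UMIs gave 22.2% of them in the iBC graft and 18.4% in the iBC host, and 17.8% in the primary BC graft and 6.88% in the primary BC host. The top 5 cells gave 71.7% in the iBC graft and 63.7% in the iBC host, and 57.1% in the primary BC graft and 31% in the primary BC host. Cells past the gate held 2.32% of all UMIs in the iBC graft and 1.47% in the iBC host, and 2.87% in the primary BC graft and 7.45% in the primary BC host. Of the UMIs of the 3 mitotic groups (kinases and cyclins; checkpoint and anaphase; chromosome, kinetochore and spindle) they held 80% to 95.6%, taken by group and library. These groups include the 4 gate genes, so their high share follows in part from the rule. The lowest share of a single gene in them was that of Cdc20, not a gate gene, at 65% in the primary BC graft. Of the licensing genes, cells past the gate held 5.24% in the iBC graft and 15.04% in the iBC host. They held 15% in the primary BC graft and 28.7% in the primary BC host. Of the G1 and G1/S cyclins together, nearly all of them UMIs of Ccnd1 and Ccnd2, they held 1.14% to 4.75%. Of Ccne1 they held 0% in the iBC graft and 47.8% in the iBC host, and 47.1% in the primary BC graft and 66.7% in its host. For Ccne2 these shares were 0% and 37.1%, and 20% and 47.2%. Both genes gave few UMIs. In library sums alone, fewer dividing cells and less RNA per dividing cell cannot be told apart. Counted by cell, the iBC graft had 17 cells past the gate with a median of 13 gate UMIs. The primary BC graft had 31 with a median of 9.

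**Figure D3:**
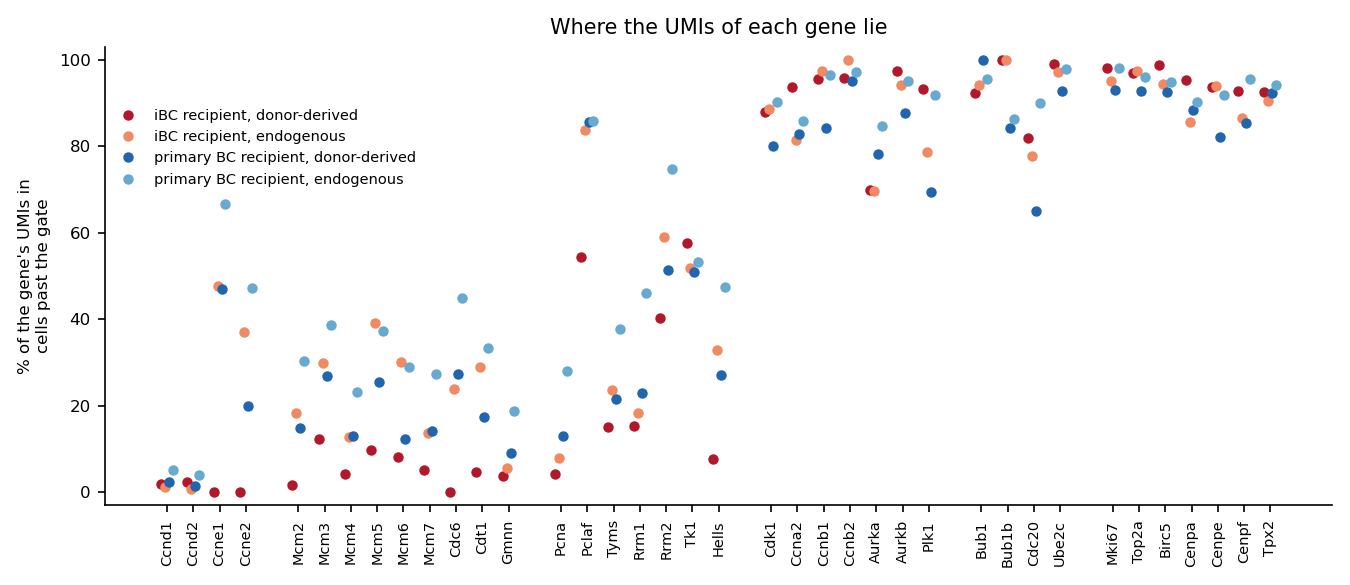
Each point is the percent of 1 gene's UMIs in 1 library that came from cells past the gate (vertical axis), with genes ordered by role and coloured by library. Genes of the 3 mitotic groups lie high, at 65% or above, and Ccnd1 and Ccnd2 lie at 5.10% or below.

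The level of each gene over all kept cells of a library is given next in CPM, to be read across libraries and not across genes. Among the chromosome, kinetochore and spindle genes, Mki67 had 20.8 CPM in the iBC graft and 10.1 CPM in the iBC host, and 8.78 CPM in the primary BC graft and 21.5 CPM in the primary BC host. Top2a had 21.9 CPM in the iBC graft and 13.6 CPM in the iBC host, and 13.7 CPM in the primary BC graft and 34.9 CPM in the primary BC host. Cenpf had 24.7 CPM in the iBC graft and 8.34 CPM in the iBC host, and 9.09 CPM in the primary BC graft and 22.1 CPM in the primary BC host. For all 3 the graft was the higher library in the iBC recipient and the lower one in the primary BC recipient. Cenpe had 9.16 CPM in the iBC graft and 2.38 CPM in the iBC host, and 3.25 CPM in the primary BC graft and 8.44 CPM in the primary BC host. Cenpa, the histone of the centromere, had 6.998 CPM in the iBC graft and 2.71 CPM in the iBC host, and 2.32 CPM in the primary BC graft and 5.65 CPM in the primary BC host. Birc5 (survivin, of the chromosomal passenger complex) had 7.84 CPM in the iBC graft and 4.41 CPM in the iBC host, and 3.09 CPM in the primary BC graft and 9.87 CPM in the primary BC host. These 3 showed the same crossed order, as did Tpx2, which activates Aurora A on the spindle. Tpx2 had 6.25 CPM in the iBC graft and 4.07 CPM in the iBC host, and 3.05 CPM in the primary BC graft and 9.49 CPM in the primary BC host.

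Of the mitotic kinases and cyclins, Cdk1 had 6.58 CPM in the iBC graft and 4.27 CPM in the iBC host, and 6.61 CPM in the primary BC graft and 16.6 CPM in the primary BC host. Ccnb1 had 5.401 CPM in the iBC graft and 1.94 CPM in the iBC host, and 1.97 CPM in the primary BC graft and 4.94 CPM in the primary BC host. Ccna2 had 4.56 CPM in the iBC graft and 1.84 CPM in the iBC host, and 1.58 CPM in the primary BC graft and 3.29 CPM in the primary BC host. Cdk1 was highest in the primary BC host, where deuterosomal-like cells were most numerous (26 of its cells, against 4 to 10 in the others), and Ccna2 had its highest value in the iBC graft, with an interval that overlapped that of the primary BC host. Ccnb2 (cyclin B2) had 2.21 CPM in the iBC graft and 1.75 CPM in the iBC host, and 1.62 CPM in the primary BC graft and 4.43 CPM in the primary BC host. Aurka had 2.96 CPM in the iBC graft and 1.6 CPM in the iBC host, and 1.78 CPM in the primary BC graft and 4.43 CPM in the primary BC host. Aurkb (Aurora kinase B, of the passenger complex) had 1.88 CPM in the iBC graft and 1.697 CPM in the iBC host, and 1.58 CPM in the primary BC graft and 3.42 CPM in the primary BC host. Counts were low for Aurkb, which rested on 40 UMIs in the iBC graft. Plk1 (Polo-like kinase) had 2.77 CPM in the iBC graft and 1.6 CPM in the iBC host, and 0.889 CPM in the primary BC graft and 3.16 CPM in the primary BC host.

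Of the checkpoint and anaphase genes, Ube2c had 15.5 CPM in the iBC graft and 5.28 CPM in the iBC host, and 4.33 CPM in the primary BC graft and 8.52 CPM in the primary BC host. Cdc20, the activator of the anaphase-promoting complex, had 9.68 CPM in the iBC graft and 3.05 CPM in the iBC host, and 4.64 CPM in the primary BC graft and 11.4 CPM in the primary BC host. Ube2c was highest in the iBC graft, and Cdc20 was high in the iBC graft and the primary BC host, whose intervals overlapped. The spindle checkpoint kinases Bub1b and Bub1 gave few counts. Bub1b had 2.21 CPM in the iBC graft and 1.02 CPM in the iBC host, and 1.47 CPM in the primary BC graft and 4.01 CPM in the primary BC host. Bub1 had 0.611 CPM in the iBC graft and 0.824 CPM in the iBC host, and 0.387 CPM in the primary BC graft and 1.94 CPM in the primary BC host.

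The 6 helicase genes, Cdc6, Cdt1, Pcna, Hells and Tk1 followed another order, with the iBC graft and host low and the primary BC graft and host high. Rrm2, Tyms, Pclaf and Gmnn did not follow it, and for Rrm1 the intervals of the iBC graft and the primary BC graft overlapped. Mcm6, a subunit of the helicase, had 6.29 CPM in the iBC graft and 7.22 CPM in the iBC host, and 28.6 CPM in the primary BC graft and 33.6 CPM in the primary BC host. Mcm2 had 5.54 CPM in the iBC graft and 4.99 CPM in the iBC host, and 11.7 CPM in the primary BC graft and 14.7 CPM in the primary BC host. Mcm3 had 7.99 CPM in the iBC graft and 7.47 CPM in the iBC host, and 14.5 CPM in the primary BC graft and 24.9 CPM in the primary BC host. In each of these both libraries of the iBC recipient stood below both of the primary BC recipient. Mcm4 had 14.3 CPM in the iBC graft and 13.2 CPM in the iBC host, and 18.4 CPM in the primary BC graft and 24.5 CPM in the primary BC host. Mcm5 had 4.32 CPM in the iBC graft and 5.82 CPM in the iBC host, and 7.69 CPM in the primary BC graft and 12.5 CPM in the primary BC host. Mcm7 had 17.1 CPM in the iBC graft and 11.6 CPM in the iBC host, and 23.7 CPM in the primary BC graft and 25.3 CPM in the primary BC host. Mcm4, Mcm5 and Mcm7, which belong to the same complex, kept that order with smaller gaps. Cdc6 had 0.939 CPM in the iBC graft and 1.21 CPM in the iBC host, and 2.397 CPM in the primary BC graft and 3.38 CPM in the primary BC host. Cdt1 had 2.02 CPM in the iBC graft and 2.67 CPM in the iBC host, and 4.68 CPM in the primary BC graft and 7.59 CPM in the primary BC host. Gmnn had 39.2 CPM in the iBC graft and 40.96 CPM in the iBC host, and 27.6 CPM in the primary BC graft and 31.7 CPM in the primary BC host. Cdc6 and Cdt1 kept the order of the helicase genes, and Gmnn had the opposite one.

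Of the DNA synthesis genes, Pcna had 7.66 CPM in the iBC graft and 6.74 CPM in the iBC host, and 19.4 CPM in the primary BC graft and 26.4 CPM in the primary BC host. Hells, a chromatin remodeller of the helicase family, had 9.11 CPM in the iBC graft and 7.37 CPM in the iBC host, and 15.8 CPM in the primary BC graft and 21.9 CPM in the primary BC host. Rrm1 had 21.6 CPM in the iBC graft and 14.5 CPM in the iBC host, and 21.8 CPM in the primary BC graft and 27.9 CPM in the primary BC host. Pcna and Hells were higher in both libraries of the primary BC recipient, and Rrm1 was lowest in the iBC host. Tyms (thymidylate synthase) had 14.6 CPM in the iBC graft and 10.7 CPM in the iBC host, and 11.4 CPM in the primary BC graft and 13.9 CPM in the primary BC host. Tk1 had 2.11 CPM in the iBC graft and 3.73 CPM in the iBC host, and 6.46 CPM in the primary BC graft and 9.49 CPM in the primary BC host. Pclaf had 4.65 CPM in the iBC graft and 6.59 CPM in the iBC host, and 6.19 CPM in the primary BC graft and 13.7 CPM in the primary BC host. Tyms stayed within 1.5-fold in all 4 comparisons, and Tk1 and Pclaf were highest in the primary BC host. Rrm2, the small subunit of ribonucleotide reductase, had 2.21 CPM in the iBC graft and 2.96 CPM in the iBC host, and 2.63 CPM in the primary BC graft and 6.202 CPM in the primary BC host.

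The D-type cyclins, which mediate growth signals in G1, were found in most cells and not only in dividing ones: Ccnd1 had a UMI in 89.99% of the iBC graft cells. Ccnd1 had 684 CPM in the iBC graft and 410 CPM in the iBC host, and 603 CPM in the primary BC graft and 412 CPM in the primary BC host. Ccnd2 had 584 CPM in the iBC graft and 626 CPM in the iBC host, and 998 CPM in the primary BC graft and 705 CPM in the primary BC host. Ccnd1 was higher in graft than in host cells of both recipients, and Ccnd2 was higher in the primary BC graft than in its host. Ccne1 and Ccne2, the cyclins that start S phase, gave few counts. Ccne1 had 0.329 CPM in the iBC graft and 1.11 CPM in the iBC host, and 1.31 CPM in the primary BC graft and 2.91 CPM in the primary BC host. Ccne2 had 1.22 CPM in the iBC graft and 1.697 CPM in the iBC host, and 3.29 CPM in the primary BC graft and 4.47 CPM in the primary BC host.

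In the iBC recipient the mitotic genes stood higher in graft than in host cells. A gene is called here where 2 libraries differ by at least 1.5-fold, the 95% interval of the ratio excludes 1, and either library holds at least 20 UMIs. Of 37 genes measured, 16 were higher in the iBC graft, where 14.3% of all features were, and 2 were lower, where 12.3% were. The median log2 ratio was 0.45 over these genes and 0.19 over all features. The 16 were all 7 chromosome, kinetochore and spindle genes, 5 of 7 mitotic kinases and cyclins, the 3 checkpoint and anaphase genes measured, and Ccnd1. Cenpe was 3.86-fold (95% interval 2.81 to 5.39), Cdc20 3.17-fold (95% interval 2.38 to 4.27) and Ube2c 2.93-fold (95% interval 2.35 to 3.68) the iBC host level. Of the 195 Cenpe UMIs of the iBC graft, 98 lay in 1 cell. None of 9 licensing genes was called, and the 2 lower genes were Ccne1 at 0.295-fold (95% interval 0.107 to 0.7098) and Tk1 at 0.566-fold (95% interval 0.383 to 0.828). TMM and median-of-ratios scaling brought the median of all features to 0.03 and 0.02. With TMM 11 genes were higher (9.87% of all features) and 4 lower (14.4%). With median-of-ratios 11 were higher (9.61% of all features) and 5 lower (14.7%). With the 5 cells of most gate UMIs left out of each library 8 of 35 genes were higher, where 14.1% of all features were, and counted as a mean over cells 8 of 37 were, where 12% of all features were. Of the 16 iBC host cells past the gate 7 were immune-like, and of the iBC graft none. With immune-like cells left out 21 of 36 genes were higher (15.3% of all features) and 0 lower (11.2%).

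For the primary BC recipient the direction was the opposite. Of 38 genes measured, 0 were higher in the primary BC graft than in its host, where 2.6% of all features were, and 24 were lower, where 12.3% were. The median log2 ratio was -1.08 over these genes and 0.004 over all features. All 7 mitotic kinases and cyclins, all 4 checkpoint and anaphase genes and all 7 chromosome, kinetochore and spindle genes were lower, with 3 of 9 licensing, 2 of 7 DNA synthesis and 1 of 4 G1 and G1/S cyclin genes. Bub1 was 0.199-fold (95% interval 0.0896 to 0.4002), Plk1 0.281-fold (95% interval 0.168 to 0.454) and Birc5 0.313-fold (95% interval 0.24 to 0.406) the host level, and Mki67 was 0.409-fold (95% interval 0.348 to 0.479). Both D-type cyclins were higher by less than the limit, Ccnd1 at 1.47-fold (95% interval 1.43 to 1.502) and Ccnd2 at 1.42-fold (95% interval 1.39 to 1.44). The primary BC graft held 10 deuterosomal-like and 2 immune-like cells, against 26 and 67 in its host. With both classes left out 14 of 38 genes were lower, where 8.26% of all features were. Among basal-like cells alone 6 of 35 genes were lower, where 2.91% of all features were, and 1 was higher (2.77%), with Top2a then at a log2 ratio of 0.02 and Cdk1 at 0.31.

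**Figure D4:**
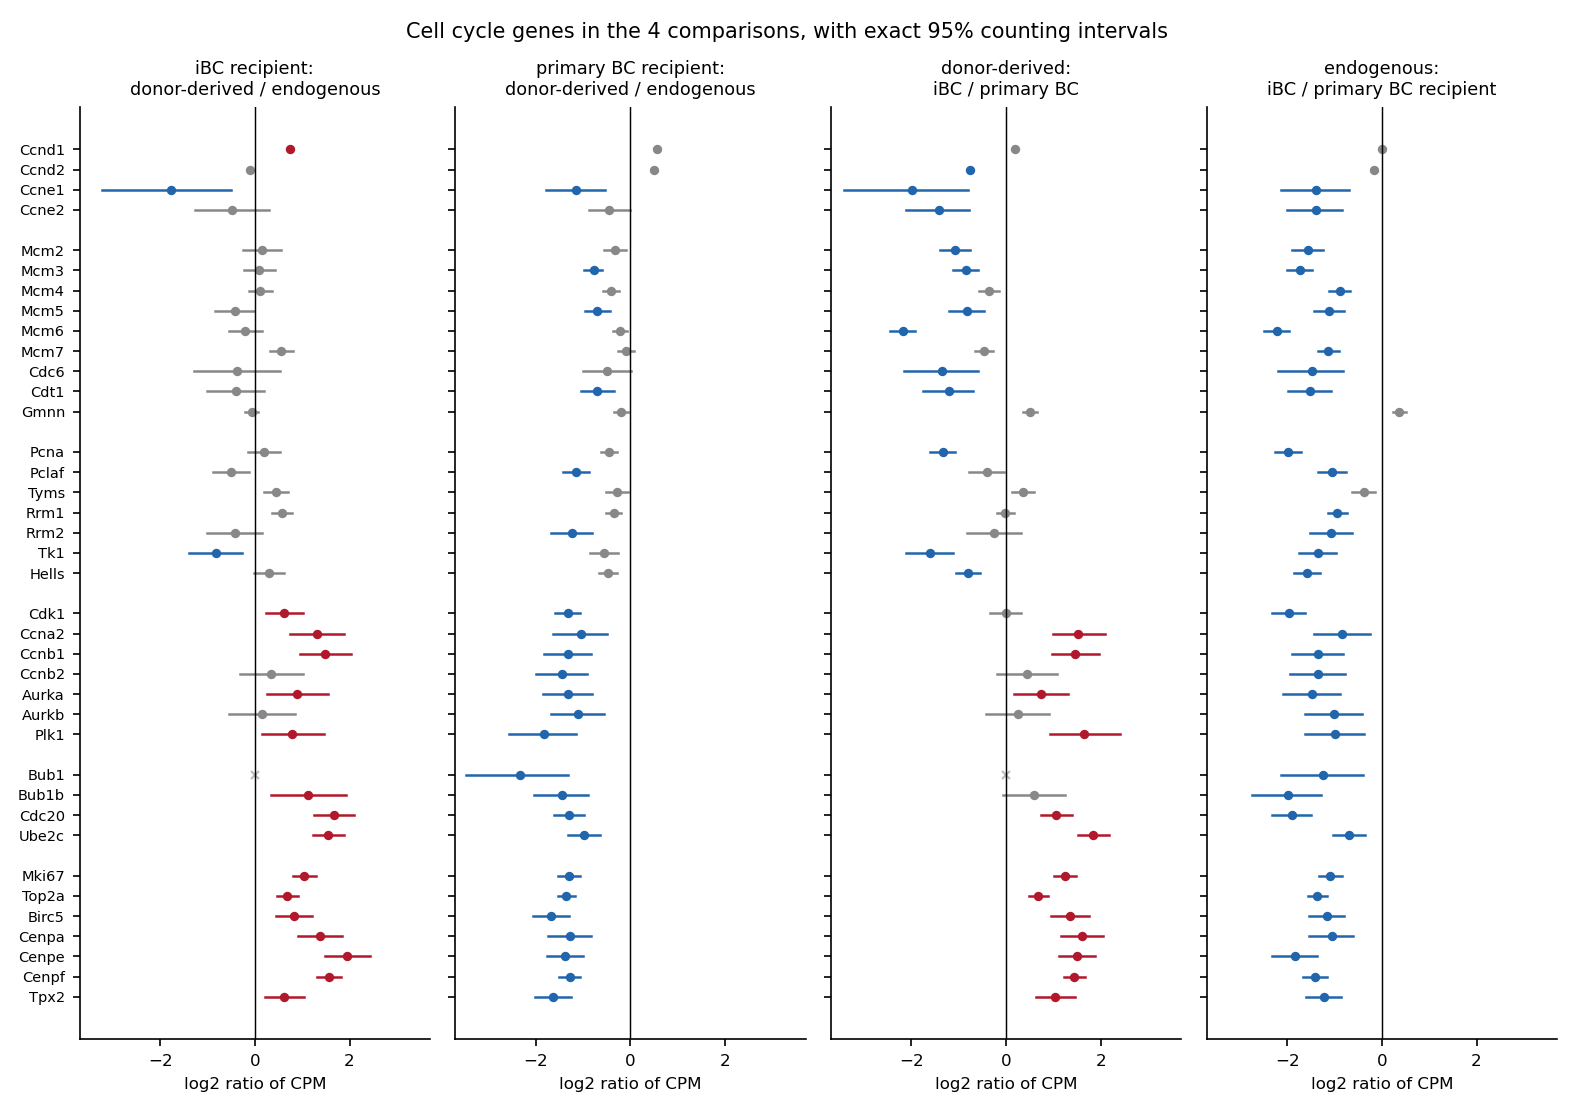
Log2 ratio of CPM for each gene (rows, ordered by role) in the 4 comparisons (panels), with exact 95% intervals as lines; red is called higher, blue called lower, grey within the limits, and a cross marks a gene with too few UMIs. In the iBC recipient the measured mitotic genes lie above 0 (16 genes of all roles are red), and in the primary BC recipient they lie below 0 (24 genes are blue).

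Between the grafts, the iBC graft was higher for late-cycle genes and lower for replication genes. Its share of cells past the gate was not higher, at 1.08% against 1.72%, with overlapping intervals. Of 37 genes measured, 13 were higher in the iBC than in the primary BC graft, where 14.9% of all features were, and 12 were lower, where 16.3% were. The 13 were all 7 chromosome, kinetochore and spindle genes, 4 of 7 mitotic kinases and cyclins and 2 of 3 checkpoint and anaphase genes. The 12 lower ones were 6 of 9 licensing, 3 of 7 DNA synthesis and 3 of 4 G1 and G1/S cyclin genes. Ube2c was 3.58-fold (95% interval 2.88 to 4.48), Plk1 3.12-fold (95% interval 1.895 to 5.29) and Cenpa 3.02-fold (95% interval 2.22 to 4.14) the primary BC graft level. Mcm6 was 0.2197-fold (95% interval 0.181 to 0.264), Ccne1 0.2501-fold (95% interval 0.0936 to 0.573) and Pcna 0.394-fold (95% interval 0.329 to 0.472). Cdk1 lay within the limit, at 0.995-fold (95% interval 0.7897 to 1.25). A single cell held 63 of the 112 Ube2c UMIs of the primary BC graft, and another 102 of the 330 of the iBC graft. With the 5 cells of most gate UMIs left out of each library 6 of 35 genes were higher, where 14.9% of all features were, and without all cells past the gate 1 of 23 was, where 15.4% were. That last drop follows in part from the gate, which picked the cells by mitotic genes. Only 1 of 7 mitotic kinases and cyclins and 1 of 4 checkpoint and anaphase genes were still measured. Of the chromosome, kinetochore and spindle genes 2 of 7 were.

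Between the hosts, nearly all genes were lower in the iBC recipient. Of 38 genes, 0 were higher, where 5.81% of all features were, and 34 were lower, where 16.8% were. The median log2 ratio was -1.29 over these genes and -0.18 over all features. Mcm6 was 0.215-fold (95% interval 0.179 to 0.257), Bub1b 0.254-fold (95% interval 0.1503 to 0.411), Pcna 0.255-fold (95% interval 0.2104 to 0.307) and Cdk1 0.257-fold (95% interval 0.202 to 0.325) the level in the primary BC host. The 4 genes within the limit were Ccnd1 at 0.996-fold (95% interval 0.968 to 1.03), Ccnd2 at 0.887-fold (95% interval 0.867 to 0.908), Tyms at 0.766-fold (95% interval 0.643 to 0.911) and Gmnn at 1.29-fold (95% interval 1.17 to 1.43). The iBC host held 4 deuterosomal-like and 26 immune-like cells, against 26 and 67 in the primary BC host, and a median of 9318 UMIs per cell against 14466. Among basal-like cells alone 16 of 33 genes were lower, where 10.7% of all features were, and Top2a then stood at a log2 ratio of 0.32 and Cdk1 at 0.26. The part of depth in these ratios was not tested.

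Below the gate some replication genes still differed between recipients, and most mitotic genes were too low to measure. In cells with fewer than 3 gate UMIs, 21 genes could be measured in the iBC recipient, of which 7 were higher in graft than in host (14.3% of all features) and 1 lower (12%). For the primary BC recipient 0 of 24 were higher in graft than in host (2.69% of all features) and 2 lower (11.3%). Between the grafts 1 of 23 was higher in iBC than in primary BC cells (15.4% of all features) and 9 lower (16.1%). Between the hosts 0 of 24 were higher in the iBC recipient (5.84% of all features) and 15 lower (15%).

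Mcm6 showed this in each of the 3 large classes. Basal-like cells below the gate had 11.6 CPM in the iBC graft and 14.4 CPM in the iBC host, and 40.3 CPM in the primary BC graft and 44.97 CPM in the primary BC host. Secretory-like cells had 3.62 CPM in the iBC graft and 1.08 CPM in the iBC host, and 9.48 CPM in the primary BC graft and 9.35 CPM in the primary BC host. Ciliated-like cells had 1.35 CPM in the iBC graft and 1.85 CPM in the iBC host, and 17.96 CPM in the primary BC graft and 18.4 CPM in the primary BC host. Both libraries of the iBC recipient lay below both of the primary BC recipient in all 3 classes. In basal-like cells the iBC graft was at 0.288-fold (95% interval 0.221 to 0.372) the primary BC graft, and the iBC host at 0.319-fold (95% interval 0.246 to 0.411) the primary BC host. In ciliated-like cells the iBC graft was at 0.0754-fold (95% interval 0.0234 to 0.189) the primary BC graft, and the iBC host at 0.101-fold (95% interval 0.0419 to 0.2103) the primary BC host. Pcna in basal-like cells had 12.6 CPM in the iBC graft and 10.3 CPM in the iBC host, and 21.1 CPM in the primary BC graft and 24.1 CPM in the primary BC host. For ciliated-like cells its level was 4.61 CPM in the iBC graft and 6.03 CPM in the iBC host, and 15.7 CPM in the primary BC graft and 15.7 CPM in the primary BC host. Pcna thus kept the same order of recipients in both classes.

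By class, 4 of 18 genes were lower in iBC than in primary BC graft basal-like cells below the gate, where 16.1% of features were. In secretory-like cells of the grafts 3 of 12 genes were lower (Mcm6, Pcna and Ccnd2) and 3 higher (Tyms, Ccnd1 and Hells). In ciliated-like cells of the grafts 3 of 10 were lower and 2 higher. For these 2 classes the share of all features was not set beside the counts. Between the hosts 11 of 16 genes were lower in basal-like cells of the iBC recipient (10.7% of features), 12 of 15 in secretory-like cells (17.8%) and 2 of 9 in ciliated-like cells (8.83%). In secretory-like cells with no gate UMI at all 5 of 11 genes were lower (Mcm2, Mcm3, Mcm6, Pcna and Ccnd2), where 17.2% of features were. Among secretory-like cells of the iBC recipient, 9 of 12 genes were higher in graft than in host cells, where 23.5% of features were. Of these Hells was 4.99-fold (95% interval 2.25 to 12.6), Mcm3 3.398-fold (95% interval 1.65 to 7.54) and Ccnd1 2.296-fold (95% interval 2.204 to 2.39) the host level.

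Geminin and the D-type cyclins differed between classes below the gate. For Gmnn, secretory-like cells had 59.8 CPM in the iBC graft and 73.96 CPM in the iBC host, and 46.5 CPM in the primary BC graft and 50.5 CPM in the primary BC host. Its level in basal-like cells was 23.4 CPM in the iBC graft and 12.9 CPM in the iBC host, and 20.1 CPM in the primary BC graft and 20.5 CPM in the primary BC host. In ciliated-like cells it was 15.4 CPM in the iBC graft and 5.57 CPM in the iBC host, and 2.62 CPM in the primary BC graft and 3.79 CPM in the primary BC host. Secretory-like cells thus had the most Gmnn in every library, while 0 to 6 of them per library were past the gate. Ccnd1 in secretory-like cells had 905 CPM in the iBC graft and 394 CPM in the iBC host, and 486 CPM in the primary BC graft and 385 CPM in the primary BC host. Its level in basal-like cells was 788 CPM in the iBC graft and 662 CPM in the iBC host, and 799 CPM in the primary BC graft and 610.1 CPM in the primary BC host. The iBC graft and host were farther apart for Ccnd1 in secretory-like than in basal-like cells. Ccnd2 in basal-like cells had 959.8 CPM in the iBC graft and 1173 CPM in the iBC host, and 1235 CPM in the primary BC graft and 982 CPM in the primary BC host. In ciliated-like cells Ccnd2 had 147 CPM in the iBC graft and 286 CPM in the iBC host, and 537 CPM in the primary BC graft and 272 CPM in the primary BC host, with the primary BC graft the highest of the 4.

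**Figure D5:**
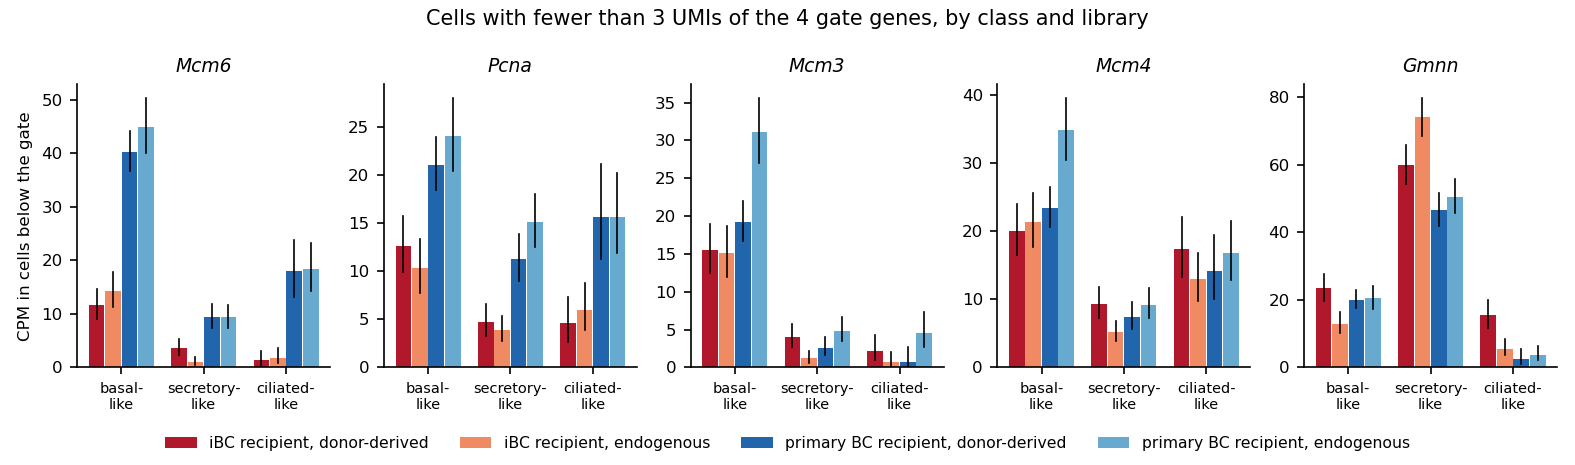
Bars of CPM in cells below the gate for Mcm6, Pcna, Mcm3, Mcm4 and Gmnn by class (basal-like, secretory-like, ciliated-like), coloured by library, each with its exact 95% Poisson interval as a line. Mcm6 lies lower in both libraries of the iBC recipient in all 3 classes, and Gmnn is highest in secretory-like cells of every library.

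A list of 98 other cell cycle genes, 37 of S phase and 61 of G2/M, was counted by the same limits, and the shares of all features given above are its background too. In the iBC recipient 27 of 58 measured G2/M genes were higher in graft than in host and 1 lower, with 3 higher and 0 lower of 33 S phase genes. For the primary BC recipient 0 G2/M genes were higher and 39 of 60 lower in graft than in host, and 0 S phase genes were higher and 14 of 37 lower. Between the grafts 22 of 58 G2/M genes were higher in iBC cells and 4 lower, with 1 higher and 12 lower of 37 S phase genes. Between the hosts 43 of 60 G2/M genes and 26 of 37 S phase genes were lower in the iBC recipient, and 0 of either were higher.

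Hjurp, the chaperone that loads Cenpa at centromeres, was the gene of that list farthest apart in the iBC recipient, with the graft at 8.74-fold (95% interval 7.49 to 10.3) the host. It had 75.8 CPM in the iBC graft and 8.68 CPM in the iBC host, and 32.6 CPM in the primary BC graft and 31.9 CPM in the primary BC host. Cells past the gate held 5.51% of its UMIs in the iBC graft, and 804 of 1579 cells there had a UMI, so most of its counts lay in cells below the gate. There it had 120.8 CPM in basal-like, 50.4 CPM in secretory-like and 10.03 CPM in ciliated-like cells of the iBC graft, against 9.76, 7.02 and 3.25 CPM in the same classes of the iBC host. In the mouse annotation used for coordinates (GENCODE vM21), Hjurp lies on the minus strand with Trpm8 27 bases and Mroh2a 181 bases away, both on the plus strand. Whether the counting used strand is not given in the sources used here, so reads of these neighbours and of Hjurp cannot be told apart and its values are uncertain. Next in that comparison were Gas2l3 at 5.28-fold (95% interval 2.56 to 12.2), Anln (anillin, of the cleavage furrow) at 4.001-fold (95% interval 2.96 to 5.49), Ckap2 at 3.54-fold (95% interval 2.42 to 5.31) and Tacc3 (a spindle protein) at 3.29-fold (95% interval 2.51 to 4.36). Cells past the gate held 29.83% of the Tacc3 UMIs of the iBC graft.

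Melk, a kinase of dividing cells, was the 1 G2/M gene of that list lower in the iBC graft than in its host, at 0.345-fold (95% interval 0.246 to 0.479). It had 2.395 CPM in the iBC graft and 6.93 CPM in the iBC host, and 7.73 CPM in the primary BC graft and 13.3 CPM in the primary BC host. Below the gate its UMIs lay mostly in ciliated-like cells, with 5.96 CPM in those of the iBC graft and 28.8 CPM in the iBC host, and 58.4 CPM in both the primary BC graft and host, while basal-like cells had at most 0.673 CPM. For the primary BC graft against its host the lowest were Pimreg at 0.278-fold (95% interval 0.122 to 0.577), Nuf2 (kinetochore) at 0.2999-fold (95% interval 0.166 to 0.519), Nusap1 (spindle) at 0.311-fold (95% interval 0.209 to 0.453), Kif2c (a kinesin) at 0.336-fold (95% interval 0.212 to 0.521) and Ncapg (condensin) at 0.348-fold (95% interval 0.203 to 0.577).

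Between the grafts the iBC cells were highest for Nusap1 at 5.12-fold (95% interval 3.57 to 7.49), Kif23 (a cytokinesis motor) at 4.47-fold (95% interval 3.62 to 5.56) and Foxm1 (a G2/M transcription factor) at 3.83-fold (95% interval 2.28 to 6.68), followed by Hmmr at 3.46-fold (95% interval 2.47 to 4.94) and Tacc3 at 3.401-fold (95% interval 2.65 to 4.41). Nusap1 rested on 12 iBC and 7 primary BC graft cells with a UMI. Cells past the gate held 98.75% of the Nusap1 and 98.51% of the Hmmr UMIs of the iBC graft. They held 46.15% of those of Kif23, 31.75% of Foxm1 and 29.83% of Tacc3. In basal-like cells below the gate Kif23 had 12.3 CPM in the iBC and 1.17 CPM in the primary BC graft. Foxm1 there had 4.54 and 0.54 CPM, and Tacc3 18.7 and 3.06 CPM, in the same order. The lower ones were Dtl (which marks Cdt1 for destruction) at 0.214-fold (95% interval 0.133 to 0.333), Melk at 0.3098-fold (95% interval 0.223 to 0.423), Dut (which hydrolyses dUTP) at 0.344-fold (95% interval 0.319 to 0.371) and Uhrf1 (DNA methylation upkeep) at 0.496-fold (95% interval 0.368 to 0.663). Dut had 41.9 CPM in the iBC graft and 47.5 CPM in the iBC host, and 122 CPM in the primary BC graft and 99.9 CPM in the primary BC host, and cells past the gate held 5.44% to 13.01% of its UMIs. Between the hosts Dtl was 0.179-fold (95% interval 0.121 to 0.258), Rad51ap1 0.179-fold (95% interval 0.109 to 0.282), E2f1 (a G1/S transcription factor) 0.1802-fold (95% interval 0.0993 to 0.307), Gas2l3 0.203-fold (95% interval 0.0878 to 0.416) and Dscc1 0.204-fold (95% interval 0.0832 to 0.438) the level in the primary BC host.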

How the data were processed

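Droplet single-cell RNA-seq (10x Chromium) was made from 4 sorted cell samples, 1 library per group. The deposited matrices hold raw UMI counts per gene and cell that the authors made before deposit; per the submitters' processing notes the build is GRCm38 and the tools include Cell Ranger, STARsolo and Seurat, with no role or order given, and whether counting used strand is not given in the sources used here. No label gives separate cultures or animals within a group.

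From the deposited counts, barcodes with at least 500 genes and at most 20% mitochondrial UMIs were kept, and doublets called by Scrublet (scanpy 1.11.5) were removed, leaving 6533 of 6784. A cell joined the class with the highest mean marker z-score (at least 3 markers with a UMI, score at least 0, margin at least 0.25, z at most 5). The gate was 3 UMIs. Levels are CPM (summed UMIs per 1000000 UMIs) with exact Poisson intervals, ratios have exact conditional intervals, and thinning drew 5000 or 3000 UMIs without replacement. Classes under 50 cells in a library are given as counts. The ratio code was tested on simulated data. Alternatives used TMM (edgeR 4.0.16), median-of-ratios (DESeq2 1.42.0), other gates, other classes and left-out cells. Fold limits for the genes singled out were 2 with the nearer bound at 1.5; of the other genes, at most 5 higher and 5 lower a comparison are named, and Gmnn, the cyclins and the genes named by class below the gate or inside it were singled out after their values were seen. The genes, lists and gates were chosen with earlier results of these data known. Promoters are from RefSeq; gene positions were read from GENCODE for all 38 genes.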

Additional observations from a re-analysis of the deposited data

Results flagged for a closer look

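For 15 of 37 genes measured in both recipients (40.5%), the ratio of graft over host was called in opposite directions in the 2 recipients. The same held for 307 of 12952 features (2.37%), counted in either order. A call needed at least 1.5-fold and an interval excluding 1. All 15 genes were higher in the iBC graft than its host and lower in the primary BC graft than its host. With 1 library per group the difference between recipients was not tested. The log2 ratio in the iBC recipient less that in the primary BC recipient was 2.33 for Mki67, 2.05 for Top2a, 1.95 for Cdk1 and 2.53 for Ube2c, the genes of the gate. Among the other mitotic kinases and cyclins it was 2.36 for Ccna2, 2.80 for Ccnb1, 2.20 for Aurka and 2.62 for Plk1. The kinetochore and centromere genes gave 2.85 for Cenpf, 2.65 for Cenpa and 3.32 for Cenpe. It was 2.50 for Birc5, 2.25 for Tpx2, 2.56 for Bub1b and 2.96 for Cdc20. Immune-like and deuterosomal-like cells differed in number between the same libraries, with 0 and 6 in the iBC graft and 26 and 4 in the iBC host, and 2 and 10 in the primary BC graft and 67 and 26 in the primary BC host. With both classes left out 21 of 36 genes were higher in the iBC graft than its host (15.3% of all features). In the primary BC graft 14 of 38 were lower than in its host (8.26%). Among basal-like cells alone 17 of 34 were higher in the iBC graft (12.9% of all features) and 6 of 35 lower in the primary BC graft (2.91%). In those cells the log2 ratio of the primary BC graft over its host was 0.022 for Top2a, 0.31 for Cdk1 and 0.041 for Ccna2. Beyond these counts, the part of the 2 classes was not tested.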

How the results depend on the processing

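No paired analysis was possible because each group is 1 library. Over all alternatives 45 counts of genes kept within 1.5 times their reported value and 10 did not. Genes higher in the iBC graft than host (16 as reported) numbered 8 as a mean over cells, 7 without cells past the gate and 8 without the top 5 gate cells. Genes lower in the primary BC graft than host (24) numbered 6 among basal-like cells, 2 without cells past the gate and 14 without immune-like and deuterosomal-like cells. Genes higher in the iBC than in the primary BC graft (13) numbered 1 without cells past the gate and 6 without the top 5. Genes lower in the iBC than in the primary BC host (34) numbered 16 among basal-like cells and 15 without cells past the gate. Without cells past the gate most mitotic genes had too few UMIs to measure, so those drops follow in part from the gate.

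Of log2 ratios of single genes over all alternatives, 1276 stayed within their reported interval, 286 left it and 13, all of called genes, reversed. The reversed ones were these. Among basal-like cells the primary BC graft over its host became 0.022 for Top2a, 0.31 for Cdk1, 0.041 for Ccna2, 0.092 for Pclaf and 1.28 for Aurkb. Without cells past the gate it became 0.37 for Cenpf and 0.44 for Cdc20, and without immune-like and deuterosomal-like cells 0.068 for Aurkb. Between the grafts Top2a became -0.56 without cells past the gate and Cenpe -0.002 without the top 5. Between the hosts Top2a became 0.32 and Cdk1 0.26 among basal-like cells, and Cenpf 0.11 without cells past the gate.

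Of shares past the gate 121 stayed within their counting interval and 27 did not. A gate on 5 S phase genes gave 1.84% in the iBC graft and 1.67% in the iBC host (basal-like 3.91% and 2.47%), and 3.76% in the primary BC graft and 7.77% in the primary BC host (basal-like 4.95% and 8.08%). Thinning to 5000 UMIs gave 0.948% in the primary BC graft and 2.30% in its host, and thinning to 3000 gave 0.775% (basal-like 0.890%) in the graft and 1.92% in the host. The 6 other G2/M genes gave 3.33% in the primary BC host. Without immune-like, mesenchymal-like and deuterosomal-like cells the iBC host share was 0.454%, and 0.480% with thinning. The primary BC graft share was then 0.673% with thinning, and its host share 2.31%, and 0.879% with thinning. The cause was not tested. Settings that leave out the top gate cells or named classes were added after seeing the data.

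Depth limits what can be said of Bub1, which had 13 UMIs in the iBC graft and 17 in the iBC host, and of classes with few cells. With 1 animal per group no value measures the spread between animals.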
